A study of Mus musculus with 16 samples.

Results

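The livers compared here came from 8 female mice that had all eaten the same diet with coffee diterpenes, 4 of them carrying identifiers that start with SY and 4 carrying identifiers that start with TP. All 8 were transgenic for APOE3-Leiden, a human variant of apolipoprotein E, on a background almost wholly C57BL6/JIco. From 10 weeks of age they ate, for 4 weeks, a Western-type diet (diet W, rich in saturated fat and cholesterol) to which 0.04% cafestol and 0.02% kahweol by weight had been added. The SY mice were SY521RL, SY518Z, SY524ROB+L and SY522ROB, and the TP mice were TP4215, TP4168, TP4205 and TP4163. These 8 mice are all the treated mice of the series, and mice were assigned by the letters of their identifier alone. The sources used here do not give the meaning of the letters SY and TP, or a question that the study asked of them. Each liver was hybridised on 2 cDNA arrays of 9596 probes, which gave 8 SY and 8 TP arrays, with the treated liver in Cy5 and liver RNA of APOE3-Leiden females on the unsupplemented diet in Cy3.

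The comparison asks how far the diet response, read as the deposited log2 ratio between a liver and the control RNA, differed between the SY and the TP mice. Differences are given as SY minus TP, for the mean of the 2 arrays of each mouse. The numerator of the ratio is not settled, so every sign is that of the deposited value and no gene is called induced or repressed by the diet. The sign of a difference between SY and TP turns with the sign of the ratio, but its size and its test do not. No label names the control mice or says whether the SY and TP arrays carried the same control RNA, so a difference in the treated livers and one in the control RNA cannot be told apart. The labels do not say in what else the SY and TP mice differed, and p-values measure only the spread among these 8 mice.

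Cafestol and kahweol are diterpenes of unfiltered coffee that raise plasma cholesterol in people, and in rodents they act on the liver through nuclear receptors and through the oxidative stress regulator NRF2. They are known to lower bile acid synthesis and to raise glutathione S-transferases, the enzymes that attach glutathione to foreign compounds. The liver also makes urea from ammonia, oxidises fatty acids in peroxisomes and mitochondria under the receptor PPAR alpha, and makes cholesterol under the SREBP proteins.

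The identifier series nearly coincided with an array code in the sample titles. All 8 TP arrays carried the code bl7, and 7 of the 8 SY arrays carried the code c3z; the meaning of the codes is likewise not given. SY518Z is the one mouse measured under both codes. The 9 bl7 arrays had a wider spread of log2 ratios over probes (SD 0.2077 to 0.2595) than the 7 c3z arrays (0.1731 to 0.2085) and more blank probes (439 to 1502 against 282 to 347). The ranges of SD overlapped through the c3z array of SY518Z and 1 array of TP4163. The SD of the difference between the 2 arrays of a mouse was 0.165 for SY518Z and 0.0944 to 0.1185 for the other 7 mice, whose 2 arrays share a code. SY518Z therefore stood apart in how far its own 2 arrays differed, with the same RNA on both.

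Each gene was set against SY518Z as follows. The 3 other SY mice were compared with the 4 TP mice, and each array of SY518Z was then placed nearer the mean of those SY mice or nearer the mean of the TP mice. Without SY518Z 1275 of 8348 genes and unnamed probes were called (15.3% of those tested; limma, Benjamini-Hochberg adjusted p under 0.05), 666 higher (7.98%) and 609 lower (7.3%) in SY. Of the 1193 with a value on both arrays of SY518Z, 176 (14.75%, 95% Wilson interval 12.85 to 16.88) had both arrays nearer the SY mice. For 460 the c3z array lay nearer the SY mice and the bl7 array of the same RNA nearer the TP mice, for 529 both lay nearer the TP mice, and for 28 the order of the codes was the opposite one. Over all tested, called or not, 8064 could be placed, and 2145 of them (26.6%) had both arrays nearer the SY mice. A further 1893 were split c3z with SY and bl7 with TP, 3250 had both nearer the TP mice, and 776 had the opposite split. On a scale where the TP mean is 0 and the SY mean is 1, the median position of the c3z array was 0.603 and that of the bl7 array 0.0585. The c3z minus bl7 difference within SY518Z had the sign of the SY minus TP difference for 851 genes, the opposite sign for 70, and was 0 for 272. Over all tested these counts were 3740, 1690 and 2662. The interval covers counting error only, since genes are not independent.

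**Figure D1:**
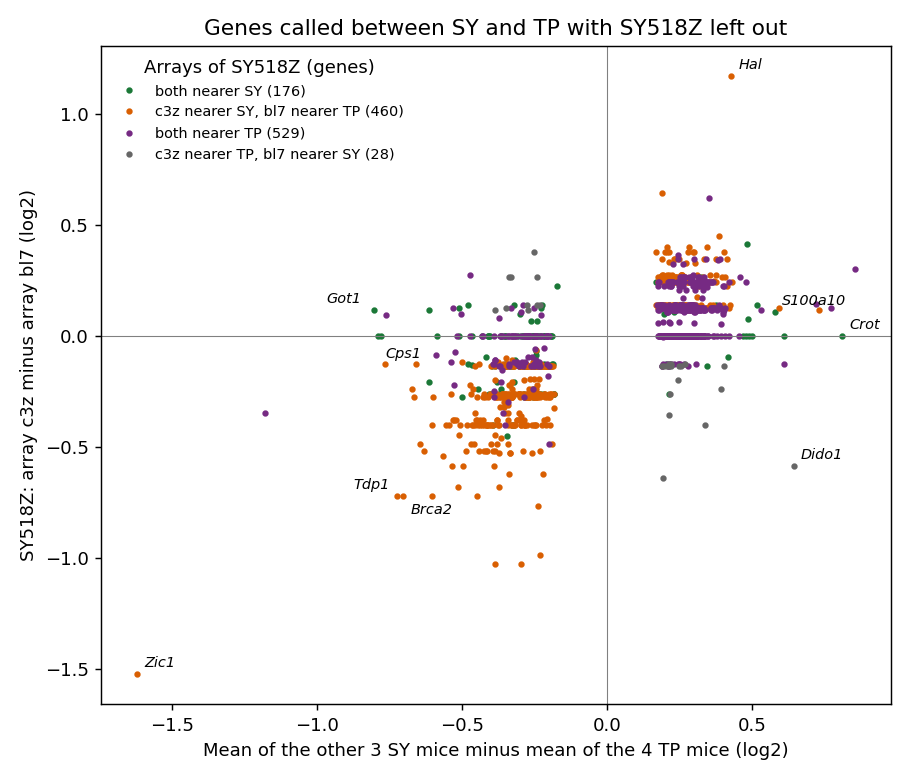
Each point is 1 of the 1193 genes or unnamed probes called between the 3 other SY mice and the 4 TP mice and measured on both arrays of SY518Z. The horizontal axis gives the mean of the 3 SY mice minus the mean of the TP mice (log2), the vertical axis the c3z array minus the bl7 array of SY518Z (log2), and the colour gives where those 2 arrays lay. The plotted values have a Pearson r of 0.697 across genes, which share the same arrays and are not independent replicates. Cps1, Got1 and Crot lie near 0 on the vertical axis, whereas Zic1, Tdp1 and Brca2 lie far below 0.

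Both arrays of each other SY mouse carry the code c3z, so a split by code could not occur in them. Each was placed in turn on the 500 genes and unnamed probes with the smallest p between the 2 other SY mice, with SY518Z also left out, and the TP mice. Of these 500 limma called 461 for SY521RL, 3 for SY524ROB+L and 1 for SY522ROB. Both arrays lay nearer the SY mice for 68.0% of those placed for SY521RL, 92.6% for SY524ROB+L and 88.6% for SY522ROB. For SY521RL, of 497 placed, 97 had 1 array nearer the SY mice and 62 had both nearer the TP mice. On the same 3 sets of genes SY518Z had 8.74%, 15.2% and 13.4%. Where the c3z array of SY518Z lay nearer the SY mice and its bl7 array nearer the TP mice, the placing of the same RNA changed with the code. Where both arrays lay nearer the TP mice, SY518Z did not share the difference of the other SY mice under either code. What set such genes apart was not tested. For most genes the results below therefore state on which side the 2 arrays of SY518Z lay. The deposited values are rounded, with a smallest step of 0.1375 from 0, so an array about midway is not firmly placed. Gene lists used below were chosen with earlier results of these data known. An earlier account had named Cps1, Got1, Lepr, Crot, Clpx, Cldn4, S100a10, Qser1, Tdp1 and Zic1. Shares called in lists that hold these genes describe the lists and do not test them.

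Over all 8 mice, 476 genes and unnamed probes were called between SY and TP (5.7% of those tested; 366 have a gene name). The ratio was higher in SY for 108 (1.29%) and lower for 368 (4.41%). Most of the differences were small: 15 reached 1.5-fold (0.287% of all tested did, called or not), 6 of them higher and 9 lower in SY, and 1 reached 2-fold. Mice of the 2 series did not overlap for 424 of the 476, beside 10.3% of all tested. The TP mean lay farther from 0 than the SY mean for 378 of the 476, beside the wider spread of the bl7 arrays, whose part in this was not tested. At a bound of 1.2-fold from 0, 229 of the called were past it in the TP mean only, 31 in the SY mean only, 14 in both on the same side, 2 in both on opposite sides, and 200 in neither. Both arrays of SY518Z lay nearer the SY mice for 142 of the 476, which is 35.15% of the 404 placed, beside 26.6% of those placed over all tested. They were split c3z with SY and bl7 with TP for 224. A further 26 had both arrays nearer the TP mice, 12 had the opposite split, and 72 were blank on an array. SY518Z was itself among the mice of this call, which disfavours genes where it lay with the TP mice. Its side for the 476, and for the genes named below, is therefore not independent of the call.

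The count and its balance depended on SY518Z. Of the called genes 22.69% were higher in SY, and without SY518Z 52.24% were. With SY518Z represented by its c3z array alone 940 were called (338 higher), and by its bl7 array alone 27 (6 higher). Within the code bl7, where the only SY array is that of SY518Z, 0 of 8137 were called by limma, with 852 at an unadjusted p under 0.05; the single SY array is there assumed to vary like the TP mice. The array code was also added as a term, fitted to single arrays with the mouse as a random block. That fit called 98 (1.2%), 78 of them higher in SY, and 22 of these were among the 476. Series and code are separated there only through SY518Z. The p-values given below with the code term therefore do not measure how SY mice vary under bl7. Leaving out another SY mouse left 57 calls without SY521RL, 57 without SY524ROB+L and 60 without SY522ROB. Leaving out a TP mouse left 180 without TP4215, 188 without TP4168, 91 without TP4205 and 602 without TP4163. Of the 476 calls 39 held in all 8 of these omissions, 14 with both arrays of SY518Z nearer the SY mice, 13 split by code, 11 blank on an array and 1 with the opposite split.

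**Figure D2:**
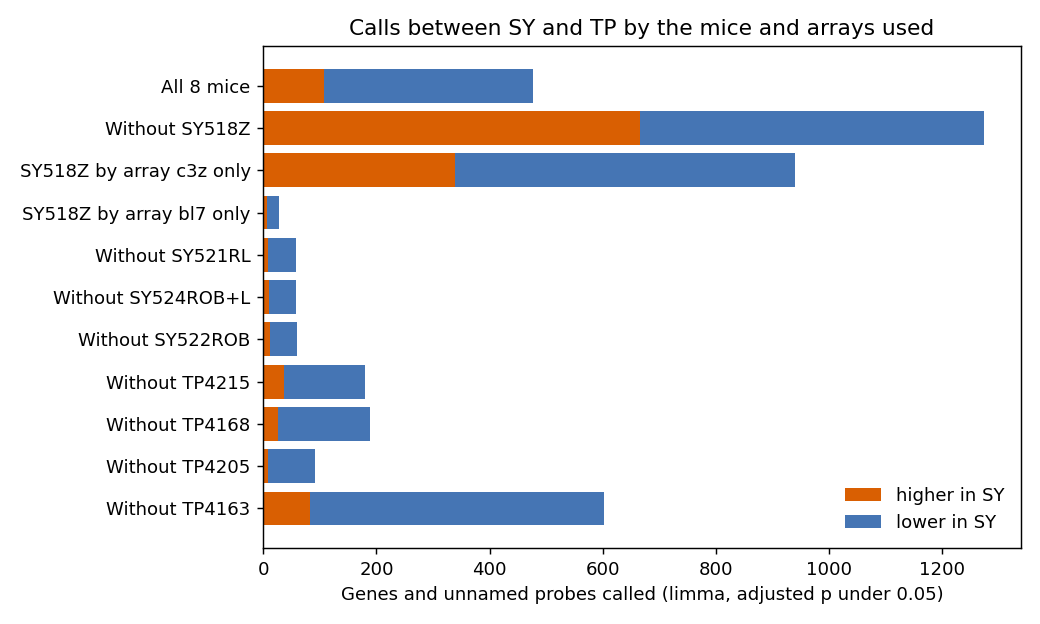
Bars give the number of genes and unnamed probes called between SY and TP (limma, adjusted p under 0.05), with those higher in SY in orange and those lower in SY in blue, for all 8 mice and for some other choices of mice and arrays. Of the bars drawn, that without SY518Z is the longest at 1275 and that with SY518Z read from its bl7 array alone the shortest at 27.

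Cps1 and Got1 had lower ratios in SY, and both arrays of SY518Z lay with the other SY mice for these genes. Cps1, carbamoyl phosphate synthetase, makes the first committed compound of the urea cycle from ammonia, and Got1 is the cytosolic aspartate aminotransferase. In the SY mice, in the order given above, Cps1 read -0.14, -0.14, 0 and -0.14, and in the TP mice 0.81, 0.68, 0.93 and 0.38. The SY mice were all at or just below 0 and the TP mice all above it, with no overlap. The difference was -0.80 ± 0.10 (SE), a 1.74-fold difference (limma, adjusted p = 0.00413). Both arrays of SY518Z read -0.14, the c3z and the bl7 array alike. Got1 read -0.14, -0.32, -0.26 and 0.20 in the SY mice and 0.72, 0.85, 1 and 0.38 in the TP mice. SY522ROB was the highest SY mouse and still lay below TP4163, the lowest TP mouse. The Got1 difference was -0.87 ± 0.13 (SE; limma, adjusted p = 0.00892), and the SY518Z arrays read -0.26 (c3z) and -0.38 (bl7). Both calls held in every omission of a mouse. Where a call below was lost, the mice are named with the lowest and highest adjusted p (limma) without them. Moderation and adjustment run over all genes, so a loss need not come from the gene's own values. Within the code bl7, SY518Z minus the TP mice was -0.83 for Cps1 and -1.12 for Got1, and with the array code as a term the differences were -0.81 (adjusted p = 0.000334) and -1.02 (0.000528).

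Of the 4 measured genes of the urea cycle and ammonia handling, 2 were lower in SY (beside 4.41% of all tested), 0 were higher and 2 were not called, and their median difference was -0.18, beside 0.02 over all genes tested. The second lower gene was Slc25a13, the mitochondrial carrier that exports aspartate, at 0.13 ± 0.09 (SD, n = 4 mice) in SY and 0.43 ± 0.14 in TP (adjusted p = 0.0446). Both arrays of SY518Z read 0.26 for Slc25a13, equal to TP4168, so its groups overlapped. That value lay about midway between the means of the other SY mice (0.09) and the TP mice (0.43). Its call was lost without SY521RL, SY524ROB+L, SY522ROB, TP4215, TP4205 or TP4163 (0.0505 to 0.14). The uncalled members were Otc, ornithine transcarbamylase of the urea cycle (difference -0.06, adjusted p = 0.559), and Glul, glutamine synthetase (0.19, adjusted p = 0.383). Of 25 measured genes of amino acid catabolism 2 were lower (Got1 and Aass), 1 was higher (Hal) and 22 were not called (12% called, beside 5.7% of all tested), with a median difference of -0.10. Aass, the enzyme that starts lysine breakdown, was 0.15 ± 0.08 in SY and 0.40 ± 0.07 in TP (adjusted p = 0.0355), with SY518Z at 0.14 (c3z) and 0 (bl7). It remained called with the array code as a term (-0.38, adjusted p = 0.015), but not without SY521RL, SY524ROB+L, SY522ROB, TP4215, TP4168 or TP4205 (0.0563 to 0.111). For Hal, histidine ammonia-lyase, the 2 arrays of SY518Z read 0.58 (c3z) and -0.58 (bl7), on opposite sides of 0. Its difference of 0.47 (adjusted p = 0.0178) became -0.34 with the array code as a term (adjusted p = 0.515) and was lost without SY524ROB+L, SY522ROB or TP4205 (0.0588 to 0.0662). The TP mean of Hal was -0.58 ± 0.13, and the bl7 array of SY518Z lay at that level.

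**Figure D3:**
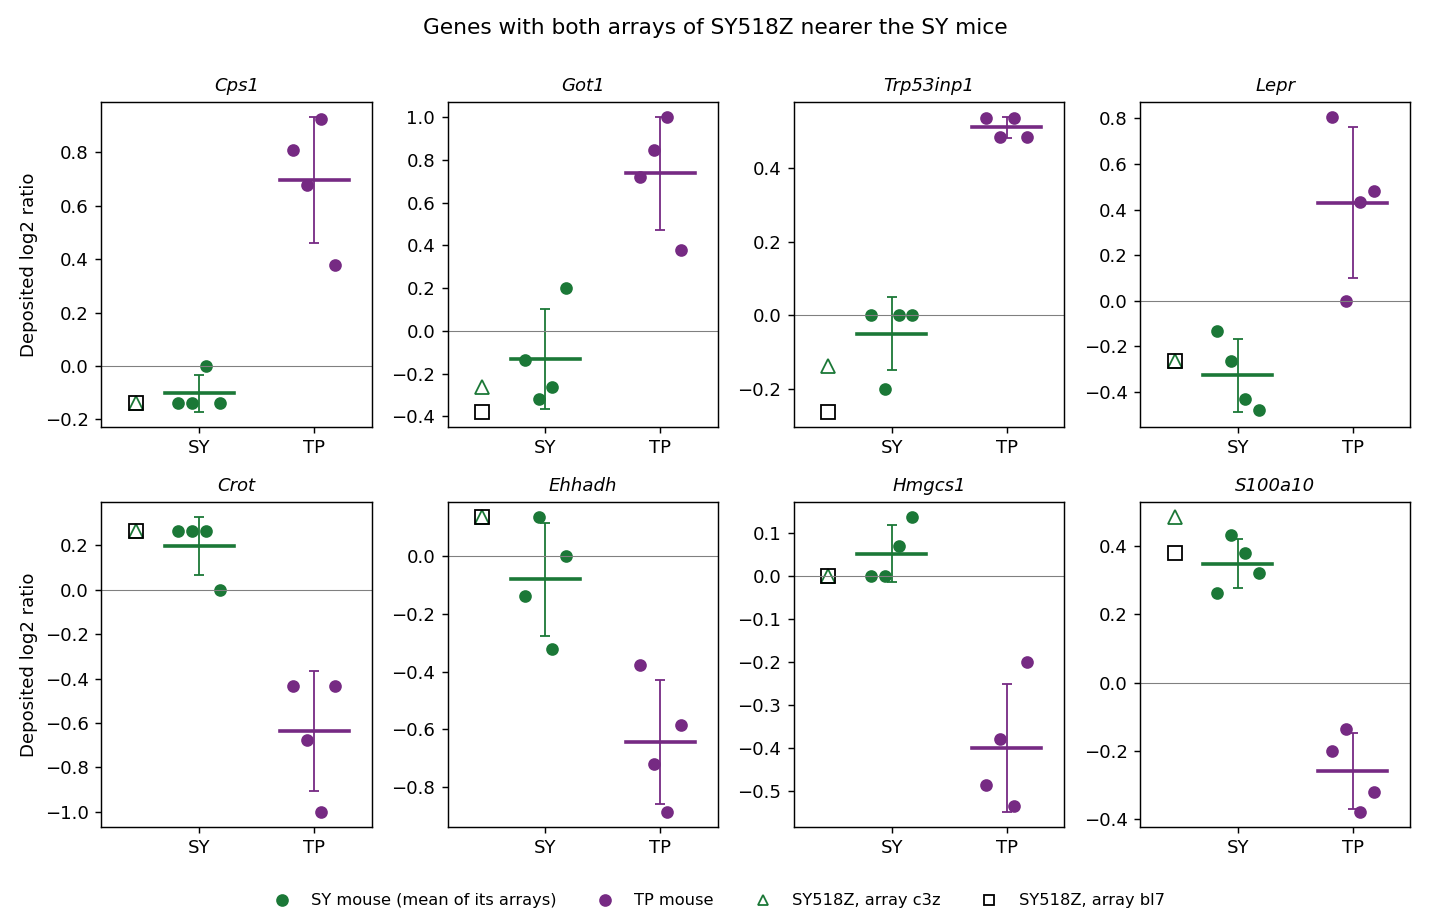
Each panel gives the deposited log2 ratio of 1 gene, with filled points for mice (mean of 2 arrays), horizontal bars for the mean of 4 mice and vertical bars for the SD. The open triangle and the open square to the left of the SY points are the c3z and the bl7 array of SY518Z; in all 8 panels both lie on the SY side. Cps1, Got1, Trp53inp1 and Lepr are lower in SY, and Crot, Ehhadh, Hmgcs1 and S100a10 are higher.

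Genes of peroxisomal fatty acid oxidation and other PPAR alpha targets were among those with a higher ratio in SY. Crot, the peroxisomal carnitine octanoyltransferase that passes shortened fatty acids on to mitochondria, read 0.26, 0.26, 0.26 and 0 in the SY mice and -0.43, -0.68, -1 and -0.43 in the TP mice. No SY mouse was below 0 and every TP mouse was at least 0.43 below it. The difference was 0.83 ± 0.12 (SE), a 1.78-fold difference (limma, adjusted p = 0.00636), and held in every omission. Both arrays of SY518Z read 0.26. Ehhadh, the peroxisomal bifunctional enzyme, read -0.14, 0.14, -0.32 and 0 in the SY mice and -0.38, -0.72, -0.89 and -0.58 in the TP mice. The TP mice were lower throughout, though SY524ROB+L came close to TP4215. Its difference was 0.56 ± 0.11 (SE; adjusted p = 0.0189), lost without SY521RL, SY522ROB, TP4168 or TP4205 (0.0549 to 0.0761), and both arrays of SY518Z read 0.14. With the array code as a term the differences were 0.86 for Crot (adjusted p = 0.00125) and 0.65 for Ehhadh (0.0167).

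Of 10 measured PPAR alpha targets 3 were higher in SY (beside 1.29% of all tested), 0 were lower and 7 were not called, and 9 of the 10 differences were above 0 with a median of 0.26, beside 53.61% above 0 over all genes tested. The third called gene was Plin2, the lipid droplet coat protein, at 0.07 ± 0.06 (SD, n = 4) in SY and -0.24 ± 0.12 in TP (adjusted p = 0.0232). SY518Z read 0 on both arrays for Plin2, and the call was lost without SY521RL, SY524ROB+L, SY522ROB, TP4168 or TP4205 (0.0598 to 0.0907). Cyp4a14, a fatty acid omega-hydroxylase, and Fabp1, the liver fatty acid binding protein, were not called. Cyp4a14 read 0.38, 0.81, 0.20 and 0.49 in the SY mice and 0.49, -0.14, -0.14 and -0.38 in the TP mice (adjusted p = 0.0894), and TP4215 lay among the SY mice. Fabp1 read 0.77, 1.35, 0.20 and 0 and 0.43, 0.14, -0.14 and 0.26 (adjusted p = 0.301), with SY518Z high on both arrays (1.32 and 1.38). Crot and Ehhadh were also the 2 called genes, both higher, of 14 measured for peroxisomal fatty acid oxidation (14.3%, beside 5.7% of all tested). The median difference of that list was 0.06. Of 12 measured genes of mitochondrial fatty acid oxidation 11 had a difference above 0 (median 0.08) and 0 were called higher. The 1 called lower was Acadsb, a branched-chain acyl-CoA dehydrogenase, for which the arrays of SY518Z were split by code. Outside these lists, Dbi, the acyl-CoA binding protein, was -0.10 ± 0.12 in SY and -0.46 ± 0.07 in TP (adjusted p = 0.0163, with the code term 0.40 and 0.0468), and its call was lost without SY521RL or TP4205 (0.0567 to 0.0676). Both arrays of SY518Z read 0 for Dbi, nearer the SY mice. Dbi was named after its values were seen.

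Among genes of sterol synthesis and lipoproteins, Hmgcs1 was the clearest. It encodes the cytosolic HMG-CoA synthase, which makes the substrate of HMG-CoA reductase and is a known SREBP target. Hmgcs1 read 0, 0, 0.07 and 0.14 in the SY mice and -0.49, -0.38, -0.54 and -0.20 in the TP mice. The SY mice lay at or just above 0 and the TP mice below it, without overlap. The difference was 0.45 ± 0.07 (SE; limma, adjusted p = 0.0107), both arrays of SY518Z read 0, and the call held in every omission and with the array code as a term (0.43, adjusted p = 0.0387). Of 11 measured genes of cholesterol synthesis and uptake 2 were higher in SY (18.2%, beside 1.29% of all tested), 0 lower and 9 not called, with a median difference of 0.09. Without SY518Z 2 were called higher and 1 lower, beside 7.98% and 7.3% of all tested. The other was Insig2, which holds the SREBP proteins in the endoplasmic reticulum, at 0.18 ± 0.10 in SY and -0.30 ± 0.31 in TP (adjusted p = 0.0443); SY518Z read 0.14 (c3z) and 0 (bl7), and the call was lost without SY521RL, SY524ROB+L, SY522ROB, TP4215, TP4168 or TP4205 (0.067 to 0.142).

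Hmgcs1 and Ehhadh, a sterol gene and a peroxisomal gene that both had higher ratios in SY, are shown with the 250 bases before their start, because both windows hold the letters of a sterol regulatory element. The sequences are from RefSeq (GRCm38.p6), written 5′ to 3′ on the strand of the gene. Capitals mark the match to TCACNCCAC or its reverse complement. The window of Hmgcs1 is chr13:119690101-119690350, plus strand, and its match lies 129 to 137 bases before the start. The window of Ehhadh is chr16:21787835-21788084, minus strand, and its match, on the opposite strand to the gene, lies 163 to 171 bases before the start.
Hmgcs1: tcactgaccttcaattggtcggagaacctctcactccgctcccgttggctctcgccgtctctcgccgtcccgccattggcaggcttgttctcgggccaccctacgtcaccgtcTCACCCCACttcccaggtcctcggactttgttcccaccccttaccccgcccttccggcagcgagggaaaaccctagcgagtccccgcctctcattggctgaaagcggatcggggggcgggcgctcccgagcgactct
Ehhadh: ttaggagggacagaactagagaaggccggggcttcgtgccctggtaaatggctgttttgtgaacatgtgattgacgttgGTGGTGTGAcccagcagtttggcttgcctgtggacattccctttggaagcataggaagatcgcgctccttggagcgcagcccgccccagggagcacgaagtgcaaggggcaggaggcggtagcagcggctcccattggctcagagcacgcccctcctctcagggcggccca
Searched on both strands, these letters occurred in 346 of 32851 windows of the same length (1.05%) and in 3 of the 58 windows found for the 69 genes selected by the naming rule, the third being that of Gstm6. A match describes letters only, and binding was not measured.

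Lipoprotein genes gave 2 called, both higher in SY, of 18 measured (11.1%, beside 5.7% of all tested), with a median difference of 0.03. Without SY518Z 3 were called higher and 3 lower, beside 7.98% and 7.3% of all tested. Mttp, the transfer protein that loads lipid onto apolipoprotein B, was 0.02 ± 0.07 (SD, n = 4) in SY and -0.26 ± 0.05 in TP (adjusted p = 0.0181), with SY518Z at 0 on both arrays. Its call was lost without SY521RL, SY524ROB+L or TP4205 (0.0586 to 0.0749). Apoc2, the activator of lipoprotein lipase, read 0.07, 0.26, 0.07 and -0.26 in the SY mice and -0.32, -0.26, -0.32 and -0.38 in the TP mice (adjusted p = 0.0458). SY522ROB lay at the level of TP4168, so the groups overlapped, and the call was lost without SY521RL, SY524ROB+L, TP4215, TP4168, TP4205 or TP4163 (0.0744 to 0.138). Both arrays of SY518Z read 0.26 for Apoc2, nearer the SY mice. G0s2, an inhibitor of adipose triglyceride lipase, read 0.58, 0.89, 0.43 and 0.68 in the SY mice and 0, 0, 0.38 and -0.07 in the TP mice. Every SY mouse was above the highest TP mouse, TP4205, and the difference was 0.57 ± 0.11 (SE; adjusted p = 0.0169). SY518Z read 0.93 and 0.85 for G0s2, with the code term the difference was 0.60 (0.0382), and the call was lost without SY521RL, SY522ROB, TP4215 or TP4168 (0.051 to 0.0685). Npc2, a lysosomal cholesterol carrier named after its values were seen, was lower in SY, at -0.46 ± 0.07 against -0.13 ± 0.14 (adjusted p = 0.029; with the code term -0.43 and 0.0379). The Npc2 call was lost without SY521RL, SY524ROB+L, SY522ROB, TP4215, TP4168 or TP4205 (0.052 to 0.0984). For Npc2 both arrays of SY518Z lay nearer the SY mice. In fatty acid and glycerolipid synthesis 1 of 14 was called (7.14%, beside 5.7% of all tested). This was the mitochondrial citrate carrier Slc25a1, lower in SY (-0.27, adjusted p = 0.0427). It was lost without SY521RL, SY524ROB+L, SY522ROB, TP4215, TP4168, TP4205 or TP4163 (0.0574 to 0.134). The c3z array of SY518Z read -0.14, with the SY mice. Its bl7 array read 0, about midway between the means of the other SY mice (-0.13) and the TP mice (0.15). Of 12 genes of bile acid synthesis and transport 0 were called by limma, and the smallest p was that of Abcb4, the canalicular phospholipid exporter (0.51, unadjusted p = 0.00438, adjusted p = 0.0591).

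Gstm1, Gstm2 and Gstm6, glutathione S-transferases of the mu class, lay far below 0 in every mouse of both series. Gstm2 read -1.61, -1.64, -1.54 and -1.71 in the SY mice and -1.91, -2.15, -2.21 and -2.14 in the TP mice. All TP mice lay farther below 0 than all SY mice, and the difference was 0.48 ± 0.07 (SE; limma, adjusted p = 0.00768). The c3z array of SY518Z read -1.43 and the bl7 array -1.85, the first beyond the other SY mice and the second between the groups. The Gstm2 call held in every omission. With each array scaled to a common SD the difference was 0.13 (adjusted p = 0.519), and with the array code as a term 0.17 (0.743). Gstm6 was -1.78 ± 0.08 in SY and -2.08 ± 0.17 in TP (adjusted p = 0.0475), with SY518Z at -1.43 (c3z) and -1.89 (bl7). It took the opposite sign with a common SD (-0.06), and its call was lost without SY521RL, SY518Z, SY524ROB+L, SY522ROB, TP4168, TP4205 or TP4163 (0.0512 to 0.132). Gstm1, the member farthest from 0, was -2.41 ± 0.19 in SY and -2.56 ± 0.27 in TP and was not called (adjusted p = 0.471); its difference of 0.15 became -0.33 with a common SD. The probes of this family can bind transcripts of close relatives.

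Of 30 measured NRF2 targets and glutathione enzymes 4 were higher in SY, 1 was lower and 25 were not called (16.7% called, beside 5.7% of all tested), and 24 of the 30 differences were above 0 (median 0.15). Beside Gstm2 and Gstm6 the higher genes were Gclm, the regulatory subunit of glutathione synthesis (-0.22 ± 0.06 in SY, -0.44 ± 0.08 in TP, adjusted p = 0.0447), and the quinone reductase Nqo1 (-0.07 ± 0.12 and -0.34 ± 0.06, 0.0414). Both lay closer to 0 in SY. The SY518Z arrays read -0.14 and -0.26 for Gclm, both nearer the SY mice, and -0.14 and -0.26 for Nqo1, split by code. The call of Gclm was lost without SY521RL, SY524ROB+L, SY522ROB, TP4215, TP4168 or TP4205 (0.0574 to 0.137), and that of Nqo1 without SY521RL, SY524ROB+L, SY522ROB, TP4215, TP4168, TP4205 or TP4163 (0.0598 to 0.134). The lower gene was Hmox1, heme oxygenase, a target of NRF2 that also answers to heme. Hmox1 read -0.76, -0.63, -0.54 and -0.43 in the SY mice and -0.43, -0.07, -0.07 and -0.07 in the TP mice. TP4215 was as low as SY522ROB, and the other TP mice lay close to 0. The difference was -0.43 ± 0.09 (SE; adjusted p = 0.0252), SY518Z read -0.68 and -0.58, and the call was lost without SY521RL, SY524ROB+L, SY522ROB, TP4168 or TP4205 (0.0584 to 0.095). Hmox1 thus differed in the opposite direction from the 4 other called members of the list.

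Among 11 measured targets of the xenobiotic receptors PXR, CAR and AHR, 1 was lower, 1 was higher and 9 were not called (18.2% called, beside 5.7% of all tested; median difference -0.15). Without SY518Z 3 were lower and 1 was higher, beside 7.3% and 7.98% of all tested. Fmo5, a flavin-containing monooxygenase of the liver, read 0, 0.14, 0 and 0.14 in the SY mice and 0.81, 0.54, 0.92 and 0.26 in the TP mice. The SY mice lay between 0 and 0.14 and all TP mice lay above them, over a wide range. The difference was -0.56 ± 0.12 (SE; adjusted p = 0.0218), both arrays of SY518Z read 0.14, and the call was lost without SY521RL, SY524ROB+L, SY522ROB, TP4215 or TP4205 (0.0659 to 0.0845). Cyp3a13, a cytochrome P450, was higher in SY (0.24 ± 0.14 against -0.05 ± 0.10, adjusted p = 0.0475), with both arrays of SY518Z at the upper end (0.49 and 0.38). The Cyp3a13 call was lost without SY521RL, SY524ROB+L, SY522ROB, TP4215, TP4168, TP4205 or TP4163 (0.0568 to 0.138).

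Clpx and Lonp1, of mitochondrial protein turnover, were higher in SY. Clpx, the ATPase that feeds proteins to the mitochondrial protease ClpP, read 0, 0.26, 0.32 and 0.32 in the SY mice and -0.43, -0.14, -0.89 and -0.14 in the TP mice. No SY mouse was below 0 and no TP mouse above it, with TP4205 far below the others. The difference was 0.62 ± 0.14 (SE; adjusted p = 0.0328), both arrays of SY518Z read 0.26, and the call was lost without SY521RL, SY524ROB+L, SY522ROB, TP4215 or TP4205 (0.055 to 0.11). Lonp1, the other main mitochondrial matrix protease, was 0.02 ± 0.07 in SY and -0.21 ± 0.07 in TP (adjusted p = 0.0489), and its 2 probes had differences of 0.22 and 0.23. Both arrays of SY518Z read -0.07 for Lonp1, about midway between the means of the other SY mice (0.05) and the TP mice (-0.21). The call of Lonp1 was lost without SY521RL, SY524ROB+L, SY522ROB, TP4215, TP4168, TP4205 or TP4163 (0.0521 to 0.152). These were the 2 called genes, both higher, of 13 measured for mitochondrial proteases, chaperones and import (15.4%, beside 5.7% of all tested; median difference 0.05).

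The shares called among genes of mitochondrial ribosomal proteins (7.14%), the proteasome (3.23%), endoplasmic reticulum folding (6.67%) and oxidative phosphorylation (5.26%) were near the 5.7% of all tested. Of 28 mitochondrial ribosomal protein genes 2 were higher in SY, 0 lower and 26 not called, and 22 of the 28 differences were above 0 (median 0.10). Mrpl2 differed by 0.23 (adjusted p = 0.0475) and Mrpl44 by 0.27 (adjusted p = 0.035), both structural proteins of the large subunit, and SY518Z read -0.14 on each array for both genes. The call of Mrpl2 was lost without SY521RL, SY524ROB+L, SY522ROB, TP4168, TP4205 or TP4163 (0.0609 to 0.141), and that of Mrpl44 without SY521RL, SY524ROB+L, SY522ROB, TP4215, TP4205 or TP4163 (0.0544 to 0.109). Of 31 proteasome genes 26 had differences above 0 (median 0.06) and 1 was called, Psmb5, a catalytic subunit, at 0.26 (adjusted p = 0.0483; lost without SY521RL, SY524ROB+L, SY522ROB, TP4168, TP4205 or TP4163, at 0.0808 to 0.142). Of 15 genes of endoplasmic reticulum folding 1 was called, P4hb, protein disulfide isomerase, higher in SY at -0.18 ± 0.03 against -0.45 ± 0.13 (adjusted p = 0.0394; lost without SY521RL, SY524ROB+L, SY522ROB, TP4168, TP4205 or TP4163, at 0.0599 to 0.124). Both arrays of SY518Z lay nearer the SY mice for Psmb5 and P4hb. Oxidative phosphorylation had 2 called of 38, Atp5b higher (0.21, adjusted p = 0.0497) and the complex I assembly factor Ndufaf7 lower (-0.29, 0.0355). SY518Z was split by code for both of these, but for Atp5b its bl7 array (0.14) lay about midway. The Atp5b mean was 0.26 in the other SY mice and 0.03 in the TP mice. Within bl7 the Ndufaf7 difference was 0.10, on the opposite side of 0, and that of Atp5b was 0.10. The call of Ndufaf7 was lost without SY521RL, SY524ROB+L, SY522ROB, TP4215, TP4168 or TP4205 (0.0707 to 0.114), and that of Atp5b without SY521RL, SY524ROB+L, SY522ROB, TP4215, TP4168, TP4205 or TP4163 (0.0512 to 0.152).

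In signalling and cell structure, the leptin receptor gene Lepr had the widest difference after Zic1, Got1, Crot and Cps1 among the called genes with a name. Lepr read -0.13, -0.26, -0.43 and -0.48 in the SY mice and 0.81, 0, 0.43 and 0.48 in the TP mice. All SY mice lay below 0, and of the TP mice TP4168 lay at 0 and the rest above it. The difference was -0.76 ± 0.14 (SE; limma, adjusted p = 0.0155), both arrays of SY518Z read -0.26, and the call was lost without SY524ROB+L, SY522ROB or TP4205 (0.0532 to 0.0649). Lepr was the 1 called of 22 measured genes of growth hormone, leptin and JAK-STAT signalling (4.5%, beside 5.7% of all tested). Trp53inp1, a stress gene that p53 induces, read 0, -0.20, 0 and 0 in the SY mice and 0.54, 0.49, 0.54 and 0.49 in the TP mice. The TP mice agreed closely and no SY mouse was above 0. The difference was -0.56 ± 0.06 (SE, adjusted p = 0.00352) and held in every omission. With the array code as a term it was -0.71 (7.04e-06), a fit that separates series and code only through SY518Z. On the bl7 array SY518Z read -0.26, farther from the TP mice than on the c3z array (-0.14).

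S100a10, the annexin A2 partner protein, had the smallest p among genes higher in SY. It read 0.26, 0.43, 0.38 and 0.32 in the SY mice and -0.20, -0.14, -0.38 and -0.32 in the TP mice, so that every SY mouse was above 0 and every TP mouse below it. The difference was 0.61 ± 0.07 (SE; limma, adjusted p = 0.00352), SY518Z read 0.49 and 0.38, and the call held in every omission and with the code term (0.56, 0.00187). Of 24 measured genes of cytoskeleton, annexins, S100 proteins and junctions 4 were higher in SY (16.7%, beside 1.29% of all tested). Of the others 0 were lower and 20 were not called (median difference 0.03). S100a10 and Cldn4 had been named in an earlier account of these data, so this share does not test the list. The beta-tubulin gene Tubb4b was -0.36 ± 0.15 in SY and -0.82 ± 0.21 in TP (adjusted p = 0.0276), with both arrays of SY518Z at -0.49, and was lost without SY521RL, SY524ROB+L, SY522ROB, TP4215 or TP4205 (0.0692 to 0.104). The tight junction gene Cldn4 and the keratin gene Krt8 were also higher, at 0.70 ± 0.40 against 0.10 ± 0.14 (adjusted p = 0.0451) and -0.03 ± 0.24 against -0.47 ± 0.15 (0.0449), but both arrays of SY518Z lay nearer the TP mice. Without SY521RL, SY524ROB+L, SY522ROB or any TP mouse these 2 calls were lost, with adjusted p of 0.062 to 0.144 for Cldn4 and 0.0528 to 0.148 for Krt8. Mvp, the major vault protein, was lower in SY. It read -0.54, -0.48, -0.68 and -0.68 in the SY mice and 0, 0, 0.07 and -0.14 in the TP mice, without overlap, with a difference of -0.58 ± 0.07 (SE; adjusted p = 0.00413) that held in every omission. The SY518Z arrays read -0.58 and -0.38 for Mvp, the second between the groups, and with the code term the difference was -0.38 (0.105).

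Clock genes had 3 called of 10 measured (30%, beside 5.7% of all tested), which went in both directions. Usp2, a deubiquitinase with a daily rhythm, was lower in SY (-0.32, adjusted p = 0.0465). The Usp2 call was lost without SY521RL, SY524ROB+L, SY522ROB, TP4215 or TP4205 (0.109 to 0.144). Both arrays of SY518Z read 0.14, only slightly nearer the mean of the other SY mice (-0.02) than that of the TP mice (0.34). The core clock factor Clock was lower (-0.22, 0.0328; lost without SY521RL, SY524ROB+L, SY522ROB, TP4215, TP4168 or TP4205, at 0.0608 to 0.108), with SY518Z split by code and with probe differences of -0.10 and -0.34. Hlf, a clock-controlled transcription factor, was higher (0.25, 0.0489; lost without SY521RL, SY524ROB+L, SY522ROB, TP4215, TP4168, TP4205 or TP4163, at 0.0528 to 0.152), with both arrays of SY518Z at the level of TP4168. Single members were called in other lists, and for the lists of the next 4 genes the share was below the 5.7% of all tested. These were 1 of 23 nuclear receptors and liver transcription factors (4.35%) and 1 of 18 genes of gluconeogenesis, glycolysis and glycogen (5.56%). The others were 1 of 28 genes of complement and coagulation (3.57%) and 1 of 19 MHC class II and interferon-induced genes (5.26%). The pioneer factor gene Foxa1 was lower (-0.28, adjusted p = 0.0428; lost without SY521RL, SY524ROB+L, SY522ROB, TP4215, TP4168 or TP4205, at 0.0536 to 0.138), as was Ugp2, which makes UDP-glucose for glycogen (-0.31, 0.0355; lost without SY521RL, SY524ROB+L, SY522ROB, TP4215, TP4168 or TP4205, at 0.0676 to 0.12). Complement C2 was lower (-0.34, 0.0252; lost without SY521RL, SY524ROB+L, SY522ROB, TP4215 or TP4205, at 0.064 to 0.095), and the peptide transporter gene Tap2 was higher (0.23, 0.0451; lost without SY521RL, SY524ROB+L, SY522ROB, TP4215, TP4168, TP4205 or TP4163, at 0.0549 to 0.14). For Foxa1, C2 and Tap2 both arrays of SY518Z lay nearer the SY mice. For Ugp2 both read -0.49, about midway between the means of the other SY mice (-0.66) and the TP mice (-0.31). Rarres1, a retinoid-responsive gene named after its values were seen, was higher in SY (0.50, adjusted p = 0.0428, with the code term 0.67 and 0.0268). The Rarres1 call was lost without SY521RL, SY524ROB+L, SY522ROB, TP4168, TP4205 or TP4163 (0.0635 to 0.135). For Rarres1 both arrays of SY518Z lay nearer the SY mice.

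The widest difference of all called genes followed the array code. Zic1, a zinc finger transcription factor of neural development, read 0.68, 1.44, 0.63 and 0.14 in the SY mice and 1.83, 2.15, 2.34 and 2.09 in the TP mice. All TP mice were high, and SY518Z lay between them and the other SY mice. The difference was -1.38 ± 0.21 (SE), a 2.60-fold difference (limma, adjusted p = 0.00828). On its c3z array SY518Z read 0.68, like SY521RL, and on its bl7 array 2.20, within the TP range. Within bl7 the difference was 0.10, and with the array code as a term it was 0.01 (adjusted p = 0.988), while the c3z minus bl7 coefficient was -1.59 (adjusted p = 4.36e-07). The call between SY and TP nevertheless held in every omission of a mouse, as did those of Tdp1, Brca2, Ppp3cc, Ptpn2 and Acadsb, which follow.

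**Figure D4:**
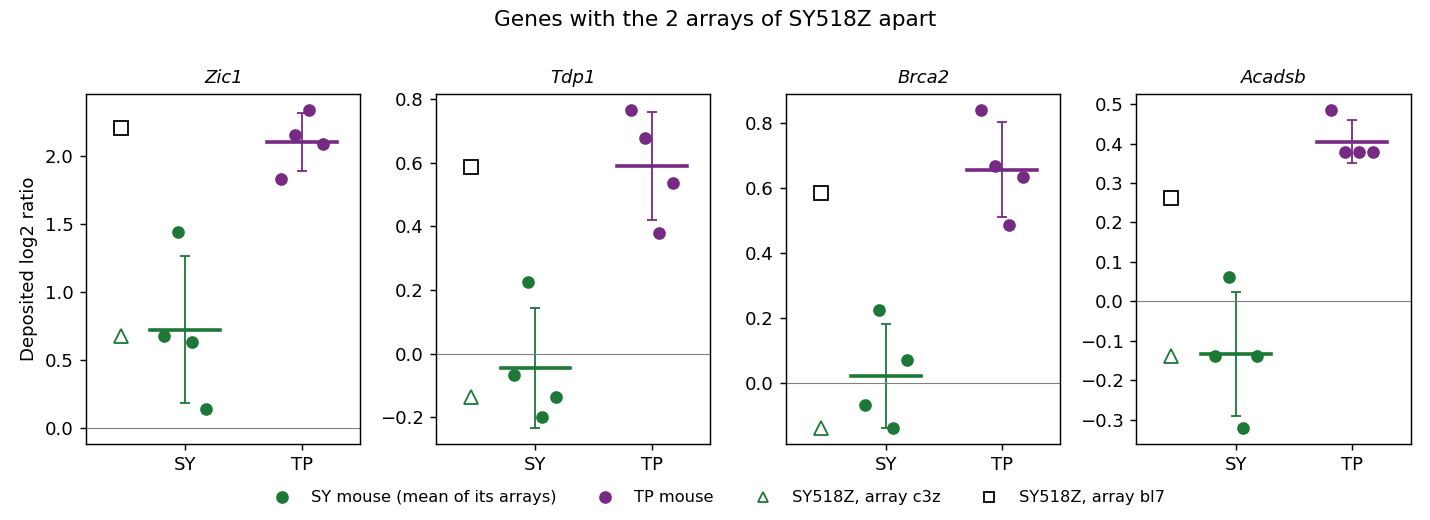
Panels give the deposited log2 ratio of 4 genes called between SY and TP, with filled points for mice (mean of 2 arrays), horizontal bars for means of 4 mice and vertical bars for the SD. The open triangle (c3z array of SY518Z) lies with the SY mice and the open square (bl7 array of the same RNA) lies nearer the TP mice in each panel, for Zic1 at 0.68 and 2.20.

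Of 21 measured genes of DNA repair 3 were lower in SY, 1 was higher and 17 were not called (19.0% called, beside 5.7% of all tested; median difference 0.06), and the arrays of SY518Z were split by code for all 3 lower genes. Tdp1, which frees topoisomerase I from DNA, was -0.05 ± 0.19 in SY and 0.59 ± 0.17 in TP (adjusted p = 0.01), and SY518Z read -0.14 (c3z) and 0.58 (bl7). Brca2, of homologous recombination, was 0.02 ± 0.16 and 0.66 ± 0.15 (adjusted p = 0.00643), again with SY518Z at -0.14 and 0.58. With the array code as a term the difference of Tdp1 was within 0.01 of 0 (adjusted p = 1) and that of Brca2 was -0.04 (0.956). Pold1, the catalytic subunit of DNA polymerase delta, was blank in TP4168. In the other mice it differed by -0.41 (adjusted p = 0.0428), with SY518Z at -0.14 and 0.26. The Pold1 call was lost without SY521RL, SY524ROB+L, SY522ROB, TP4215, TP4168, TP4205 or TP4163 (0.0543 to 0.137). Leaving out TP4168 removed no Pold1 value, so that loss came from moderation and adjustment over all genes. The higher gene was Apex1, the main endonuclease of base excision repair (0.25, adjusted p = 0.0497), with both arrays of SY518Z nearer the TP mice. Its call was lost without SY521RL, SY524ROB+L, SY522ROB, TP4215, TP4168, TP4205 or TP4163 (0.0657 to 0.155). Without SY518Z the list had 5 called higher and 3 lower, beside 7.98% and 7.3% of all tested.

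Other genes split by code were the calcineurin subunit gene Ppp3cc (-0.57, adjusted p = 0.00636; SY518Z -0.14 and 0.38) and the phosphatase gene Ptpn2, which acts on JAK-STAT signalling (-0.57, 0.0104; -0.14 and 0.14). Acadsb read -0.14, 0.06, -0.32 and -0.14 in the SY mice and 0.49, 0.38, 0.38 and 0.38 in the TP mice. SY518Z was the highest SY mouse, at -0.14 on its c3z array and 0.26 on its bl7 array, and the difference was -0.54 ± 0.07 (SE; adjusted p = 0.00636). The protease inhibitor gene Wfdc15b differed by -0.57 (adjusted p = 0.0109; lost without SY521RL or SY524ROB+L, at 0.0519 to 0.0549) and SY518Z read -0.49 and 0. The opposite split occurred for Dido1, which was 0.74 ± 0.21 in SY and 0.15 ± 0.11 in TP (adjusted p = 0.0107). Its bl7 array of SY518Z read 0.85, with the SY mice, and its c3z array 0.26, nearer the TP mice. Dido1 was called with the array code as a term (0.94, adjusted p = 0.00145) and in every omission.

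For a smaller set both arrays of SY518Z lay with the TP mice, or 1 array was blank. Qser1 read 0.85, 0.53, 1.38 and 1.29 in the SY mice and 0.14, 0.43, 0.38 and 0.32 in the TP mice. SY518Z, at 0.68 and 0.38 on its arrays, was the lowest SY mouse, and the difference of 0.69 (adjusted p = 0.0276) was lost without SY521RL, SY524ROB+L, SY522ROB, TP4215, TP4168 or TP4205 (0.0557 to 0.102). Rrm1, the large subunit of ribonucleotide reductase, and Top2a, topoisomerase II alpha, were the 2 called of 21 proliferation genes (9.52%, beside 5.7% of all tested), both lower in SY, and the bl7 array of SY518Z was blank for both. Of the 21 differences 14 were above 0 (median 0.07). Without SY518Z 5 of the genes were called higher and 2 lower, beside 7.98% and 7.3% of all tested. Rrm1 differed by -0.55 (adjusted p = 0.00689, TP4163 blank) in every omission, and Top2a by -0.40 (0.0255), which was lost without SY521RL, SY524ROB+L, SY522ROB, TP4215, TP4168 or TP4205 (0.0506 to 0.0839). Of the 476 called 15.13% were blank on an array of SY518Z, beside 2.65% of all tested. For these genes the array code could not be checked.

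Markers of cell types gave few calls, to be read beside the 5.7% called of all tested. Of 13 measured hepatocyte markers 0 were called by limma (3 at an unadjusted p under 0.05); ratios hold no level, so the tissue could not be checked against the markers as levels. Albumin, Alb, read -0.14, 0.37, -0.32 and -0.14 in the SY mice and 0.43, 0.13, 0.31 and 0.43 in the TP mice (adjusted p = 0.0933), with both arrays of SY518Z (0.26 and 0.49) nearer the TP mice. Without SY518Z 5 of the 13 were called, all lower in SY (beside 7.3% of all tested), Alb among them (adjusted p = 0.00872). The mean ratio of the 13 markers ranged from -0.15 to 0.18 over the SY mice and from -0.09 to 0.15 over the TP mice. Of 18 markers of Kupffer cells and macrophages 14 had differences below 0 (median -0.08), beside 46.36% of all tested. The 1 called was Adgre1, which encodes a macrophage surface receptor (-0.31, adjusted p = 0.0483). Its call was lost without SY521RL, SY524ROB+L, SY522ROB, TP4215, TP4168 or TP4205 (0.0807 to 0.152). For Adgre1 the SY518Z arrays were split the opposite way, c3z (0) nearer the TP mice. Single calls came from 9 neutrophil markers (Mmp9, -0.26, adjusted p = 0.0346; split by code; lost without SY521RL, SY524ROB+L, SY522ROB, TP4215, TP4168 or TP4205, at 0.0644 to 0.108), 8 of bile duct epithelium (Cldn4) and 7 of nervous tissue (Zic1). From 7 of pancreatic acinar cells Try4, a trypsin gene, was called (-0.51, 0.0149; blank in TP4168 and TP4163 and on the bl7 array of SY518Z; lost without SY521RL, SY524ROB+L, SY522ROB or TP4215, at 0.0563 to 0.064). For 18 markers of stellate cells and fibroblasts, 9 of endothelial cells, 11 of lymphocytes, 7 of adipocytes, 5 of erythroid cells and 11 of skeletal muscle, 0 were called by limma (2, 1, 3, 0, 0 and 4 at an unadjusted p under 0.05). Periportal hepatocyte markers held 2 calls of 9 (22.2%), Cps1 lower and Hal higher in SY, and SY518Z was split by code for Hal. Pericentral markers held 0 of 9 (1 at an unadjusted p under 0.05). The part of cell makeup in the differences above was not tested, and in bulk liver fewer cells of a type and less RNA per cell cannot be told apart.

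**Figure D5:**
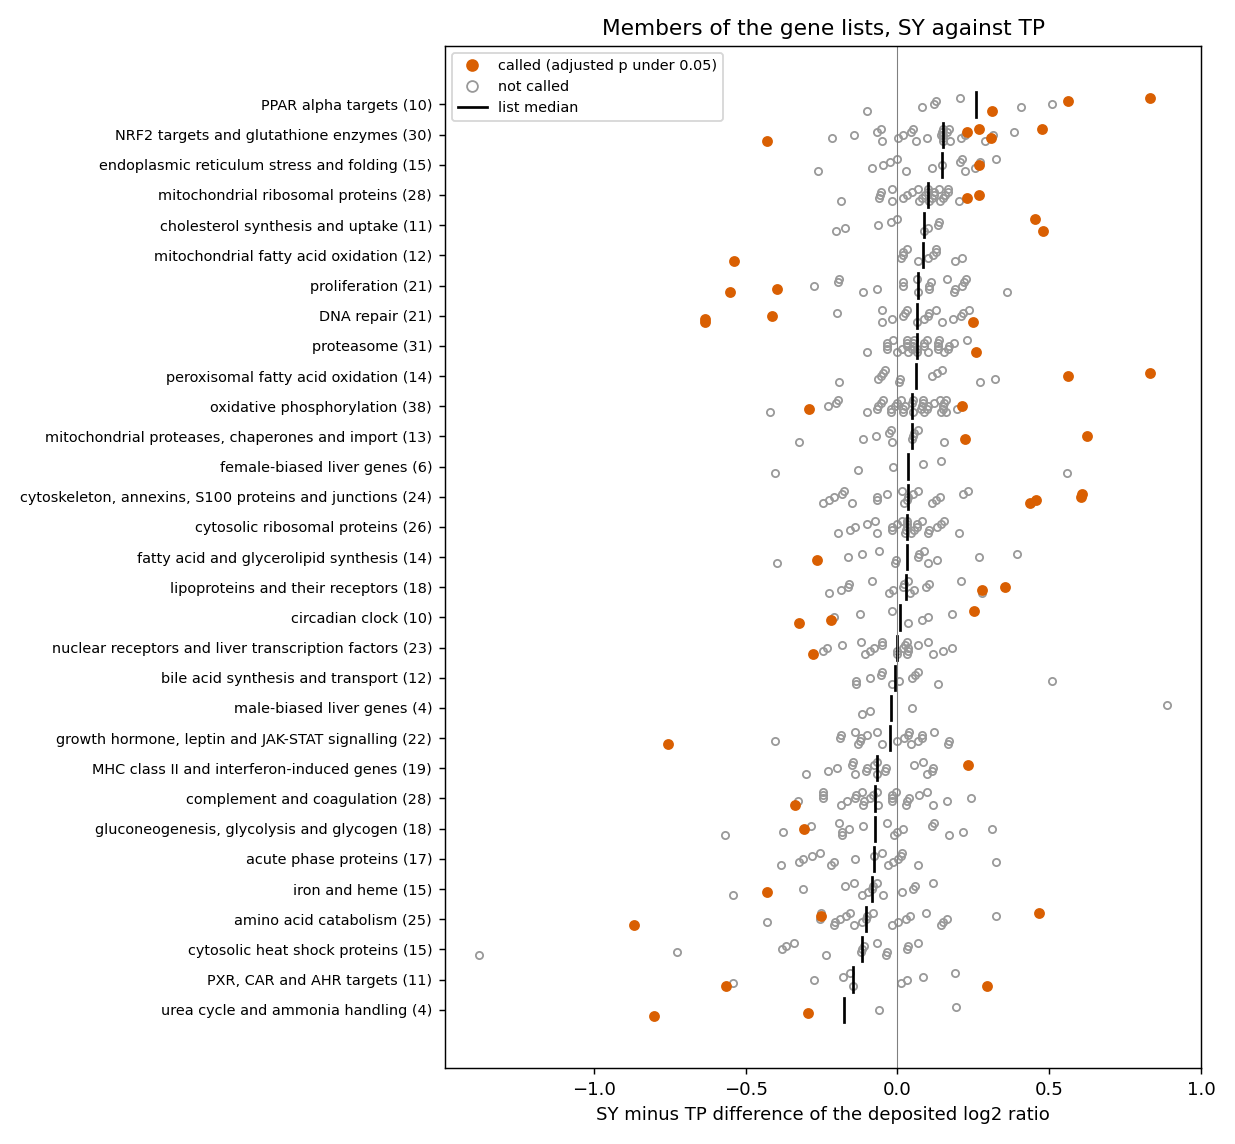
Each row is a gene list with its number of measured members, each circle a member placed by its SY minus TP difference (log2), filled orange where called and open where not, and the black bar is the list median. Medians run from -0.18 for the urea cycle and ammonia handling to 0.26 for PPAR alpha targets. Called genes lie on both sides of 0 in the NRF2, xenobiotic receptor, amino acid, clock, oxidative phosphorylation and DNA repair lists.

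Leaving out SY518Z raised the share called over all tested from 5.7% to 15.3%. Counts in other lists rose as well and are to be read beside that general rise. Amino acid catabolism then had 1 higher and 8 lower of 25. Gluconeogenesis, glycolysis and glycogen had 1 higher and 5 lower of 18 (1 lower with all 8 mice). Complement and coagulation had 5 lower of 28 (1 lower with all 8 mice). Mitochondrial ribosomal proteins then had 4 higher and 1 lower of 28. The proteasome had 3 higher of 31 and endoplasmic reticulum folding 3 higher of 15. Bile acid synthesis and transport had 1 higher and 1 lower of 12, and lymphocyte markers 3 higher of 11.

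Several lists gave no call by limma: 26 cytosolic ribosomal proteins (median difference 0.03), 17 acute phase proteins (-0.08), 15 cytosolic heat shock proteins (-0.12), 6 female-biased and 4 male-biased liver genes (0.04 and -0.02). At an unadjusted p under 0.05 there were 3, 3, 2, 3 and 1 in these lists, in the same order. Among the sex-biased genes the spread within SY was wide. Mup9, a major urinary protein gene, read 2.60, 2.04, 1.46 and 0.20 in the SY mice and 0.85, 0.89, 0.38 and 0.63 in the TP mice. SY522ROB was below every TP mouse while the other 3 SY mice were above all of them, and Mup9 was not called (difference 0.89 ± 0.37 (SE), adjusted p = 0.168). Igfbp1, an insulin-like growth factor binding protein, was lowest in SY518Z on both arrays (-1.14 and -1.20) and was not called (adjusted p = 0.137).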

How the data were processed

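Poly(A) RNA of 8 treated livers was hybridised on 16 two-colour arrays, 2 per mouse from the same RNA, without dye swaps, per the labels. The authors deposited log2 ratios; no source used here gives their background correction, normalization or numerator. The 144660 values were logs of ratios rounded to 1 decimal (a tolerance of 0.01 on the ratio times 10), which makes 0.1375 the smallest step from 0 and puts 31.8% of values at 0; every array had a median of 0. Such values hold no counts or signal, and the number of mice limits the precision.

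Probes were named from the platform annotation through Entrez identifiers: 7407 had 1 symbol, 437 several and 1752 none, and the last 2 kinds stayed unnamed. Probes of a gene and then the arrays of a mouse were averaged. A value in at least 6 mice was required, which removed 575 of 8923 genes and unnamed probes and kept 8348 (6355 named); these were tested with limma 3.58.1 in R 4.3.3 (lmFit, eBayes, two-sided, Benjamini-Hochberg, called at adjusted p under 0.05). Scripts were tested on simulated data.

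The comparison, gene lists and members were chosen with earlier results of these data known. Named genes were the 12 highest and 12 lowest called without overlap, up to 3 called members per list (or the smallest p), and 10 genes of an earlier account; others were chosen after their values were seen, among them Otc, Glul, Cyp4a14, Fabp1, Gstm1, Gclm, Nqo1, Krt8, Apex1, Dbi, Npc2 and Rarres1. Alternatives covered the mice and arrays used, array code, centring, scaling, filters and moderation. Figures were drawn with matplotlib 3.10.9.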

Additional observations from a re-analysis of the deposited data

Results flagged for a closer look

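The difference between the SY and TP mice under the same diet drew attention because 476 genes and unnamed probes passed the test of the difference itself (limma, adjusted p under 0.05).

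Among the named genes, 139 groups of 4 mice were checked for 1 mouse lying apart from the other 3, relative to the range of the 4, and 15 had one. Chance alone gives about 1 in 20 such groups where values do not tie. The rounded ratios make mice tie, so the gap can be small: for Psmb5 SY518Z read 0.069 and the other SY mice 0. The rate of 1 in 20 does not hold for tied values, and the part of such ties was not tested. In the SY mice these were SY524ROB+L for Cps1 (0), Foxa1 (-0.14), Mmp9 (0), P4hb (-0.14) and Try4 (0.069), SY522ROB for Crot (0), Slc25a1 (-0.26) and Adgre1 (-0.32), and SY518Z for Psmb5 (0.069) and Trp53inp1 (-0.20). In the TP mice they were TP4215 for Acadsb (0.49), Hmox1 (-0.43) and Apex1 (-0.26), TP4168 for Atp5b (0.14) and TP4205 for G0s2 (0.38). For Crot the value of SY522ROB lay toward the TP mice, and for Hmox1 the value of TP4215 lay at the level of an SY mouse. For Trp53inp1 that of SY518Z lay farther from the TP mice than those of the other SY mice.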

How the results depend on the processing

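The number of genes called between SY and TP, 476 in all, ranged from 57 to 1275 when 1 mouse was left out. It fell to 27 with SY518Z read from its bl7 array, to 0 within the code bl7, to 98 with the array code as a term, to 0 with the first array of each mouse (1574 at an unadjusted p under 0.05) and to 223 with the second. It was 0 against a minimum difference of 1.2-fold (104 at an unadjusted p under 0.05) and 940 with SY518Z read from its c3z array. Centring, quantile normalization, a common SD, robust moderation, other filters on blanks, probes in place of genes and single arrays blocked by mouse gave 321 to 700. Scaling to a common median absolute value changed nothing, since rounding leaves that value alike in the arrays. The common SD, and placing the other SY mice as SY518Z was placed, were chosen after seeing the data. The share of genes with both arrays of SY518Z nearer the SY mice, 14.75%, was 26.67% among the 30 called of at least 1.5-fold and 36.11% among the 36 of that size, called or not. Over all tested that share was 26.6%. Of 404 called genes and probes with a value there, 353 kept their sign within bl7. Among genes named in the text, signs turned within bl7 for Alb (0.16), Hal (-0.0053), Ndufaf7 (0.10), Otc (0.0025) and Zic1 (0.10). With the code term they turned for Hal (-0.34), Mmp9 (0.025), Ndufaf7 (0.12) and Zic1 (0.011), and with a common SD for Gstm1 (-0.33) and Gstm6 (-0.060). The cause was not tested. No paired analysis was possible because the labels number no pairs of SY and TP mice. With 4 mice a side and 1 mouse under both codes, a series difference and a code difference can be separated for no gene except through SY518Z.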

Other observations

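Cytosolic heat shock genes gave 0 calls by limma (2 of 15 at an unadjusted p under 0.05), and their mean ratio varied more among the TP than among the SY mice. Over the 15 cytosolic heat shock genes it ranged from -0.092 to 0.0053 in the SY mice and from -0.265 to 0.453 in the TP mice. TP mice thus lay both below and above all SY mice on that mean. Hspa1a, the inducible HSP70, differed by -1.38 (limma, adjusted p = 0.222), Hsp90aa1, a cytosolic HSP90, by -0.73 (adjusted p = 0.258), and Hsph1, an HSP110, by -0.38 (adjusted p = 0.208). The mean ratio of Hspa1a was -0.16 in the SY mice and 1.22 in the TP mice, that of Hsp90aa1 -0.26 and 0.47, and that of Hsph1 0.03 and 0.42. Of the 15 measured cytosolic heat shock genes 12 had a difference below 0, beside 46.36% of all tested.

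Of the 39 calls that held in every omission of a mouse, the genes not described above included Opa1, of mitochondrial fusion (-0.50, adjusted p = 0.00533), Dusp5, a MAP kinase phosphatase (-0.56, adjusted p = 0.00672), the cyclin gene Ccnd2 (-0.39, adjusted p = 0.0109) and Bmpr1a, a bone morphogenetic protein receptor (-0.36, adjusted p = 0.01). All 4 were lower in SY, and they were chosen after their values were seen. The bl7 array of SY518Z was blank for Opa1, Dusp5 and Bmpr1a, so the array code could not be checked for them. For Ccnd2 both arrays of SY518Z read -0.26, nearer the SY mice.

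Some wide differences were called only with SY518Z left out, and these genes too were chosen after their values were seen. Alas1, the first enzyme of heme synthesis, differed by -0.76 (limma, adjusted p = 0.0416), with a TP mean of 0.51 and with SY518Z at 0.68 (c3z) and 0.58 (bl7), beside the TP mice on both arrays. Serpina6, the corticosteroid-binding globulin, differed by -0.59 (adjusted p = 0.0282), and SY518Z again lay with the TP mice. Pck1, the rate-limiting enzyme of gluconeogenesis, differed by -0.61 (adjusted p = 0.0422), and both arrays of SY518Z lay nearer the SY mice. Marco, a macrophage scavenger receptor, differed by -0.77 (adjusted p = 0.0256), and Osgin1, an oxidative stress gene, by 0.73 (adjusted p = 0.0369), both with SY518Z split by code. With all 8 mice the adjusted p of these 5 genes was 0.20 for Alas1, 0.214 for Serpina6, 0.0553 for Pck1, 0.0512 for Marco and 0.0668 for Osgin1.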
